A study of Mus musculus with 4 samples.

Results

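The 10 genes described here encode transcription factors of spermatogonial stem cells, the cells that renew the male germ line and that depend on glial cell line-derived neurotrophic factor (GDNF) and fibroblast growth factor (FGF). They were taken by symbol from the 55421 genes of the count table, and each symbol matched 1 gene. Etv1, Etv4, Etv5, Bcl6b, Lhx1, Pou3f1, Id4, Eomes and Egr2 were taken for their role, with earlier results of these data known, whereas Barhl2 was selected on its fall in the same comparison. The differences of these genes between the groups are therefore given as a description, without a test.

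RNA-seq libraries came from primary cultures of spermatogonia (SSC cultures) of CD1 mice, established from the testes of neonatal pups. In the Veh group (2 libraries) the cultures stayed in complete SSC medium, and in the NRRA group (2 libraries) they received a nutrient restriction medium plus retinoic acid (RA) over 2 days. The labels list GDNF and bFGF (FGF2) at 10 ng/ml each for the cultures. The media list of the study gives a higher GDNF concentration for the complete medium than the labels do. The nutrient restriction medium was a small part of complete medium in a balanced salt solution, and its stated composition lists no growth factor added again, so that by this recipe GDNF and the FGF ligand were diluted with the nutrients, although the labels list them alike for all cultures. The effects of fewer nutrients, of less growth factor and of RA cannot be told apart in this comparison. All cultures grew on irradiated mouse embryonic fibroblasts, whose RNA is part of each library. The study describes its sequencing replicates as independent and biological and states in general that replicates used other mice, tissues or cells, while the labels do not tie the libraries to mice or cultures, and p-values measure only the spread between these libraries.

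GDNF binds the co-receptor GFRA1 and the receptor tyrosine kinase RET, and FGF2 binds FGF receptors. Both pathways pass through ERK and PI3K-AKT signalling and maintain self-renewal of SSCs in culture. Etv5, Bcl6b, Lhx1, Pou3f1 and Egr2 are known as genes that cultured SSCs keep active under GDNF, Etv1, Etv4 and Etv5 are classical transcriptional targets of FGF signalling, Id4 marks cells with stem cell activity, and Eomes marks a part of the GFRA1-positive spermatogonia. Barhl2 is known mainly from the developing nervous system.

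The promoters of the 4 genes with the largest falls are shown as the sequence next to which these transcripts start. Each is the run of 250 bases immediately before the start annotated by RefSeq on GRCm38.p6, written 5′ to 3′ on the strand of the gene, with capitals for matches of 3 of the motifs searched (GC box, CCAAT box and EGR site, on either strand). For Barhl2 the window is chr5:106458167-106458416 on the minus strand, for Lhx1 chr11:84525535-84525784 on the minus strand, for Egr2 chr10:67535249-67535498 on the plus strand (the outermost of 5 starts listed) and for Id4 chr13:48260866-48261115 on the plus strand.
Barhl2: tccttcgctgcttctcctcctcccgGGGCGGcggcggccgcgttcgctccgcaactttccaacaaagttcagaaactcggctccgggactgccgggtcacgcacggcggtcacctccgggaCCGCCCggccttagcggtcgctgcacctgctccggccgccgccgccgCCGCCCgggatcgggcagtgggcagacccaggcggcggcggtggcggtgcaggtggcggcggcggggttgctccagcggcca
Lhx1: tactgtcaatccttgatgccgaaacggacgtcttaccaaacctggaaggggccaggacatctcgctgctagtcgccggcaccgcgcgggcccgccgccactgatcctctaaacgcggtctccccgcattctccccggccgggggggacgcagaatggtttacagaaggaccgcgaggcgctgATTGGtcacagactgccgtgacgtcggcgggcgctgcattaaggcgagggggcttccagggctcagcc
Egr2: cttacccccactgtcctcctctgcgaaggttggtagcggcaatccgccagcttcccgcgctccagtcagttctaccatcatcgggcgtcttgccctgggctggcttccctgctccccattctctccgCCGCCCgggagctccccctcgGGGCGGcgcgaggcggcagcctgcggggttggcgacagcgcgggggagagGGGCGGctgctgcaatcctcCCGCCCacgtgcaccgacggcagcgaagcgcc
Id4: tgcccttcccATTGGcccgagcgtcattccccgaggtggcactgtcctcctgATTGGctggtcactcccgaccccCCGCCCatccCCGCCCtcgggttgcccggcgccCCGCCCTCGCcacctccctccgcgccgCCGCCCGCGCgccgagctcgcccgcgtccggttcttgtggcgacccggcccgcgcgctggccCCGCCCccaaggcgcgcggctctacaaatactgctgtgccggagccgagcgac

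The GC content was 74.8% for Barhl2, 64.8% for Lhx1, 71.2% for Egr2 and 75.6% for Id4, against a median of 52% over the 27025 genes with such a window. The ratio of observed to expected CpG was 1.03, 0.991, 0.829 and 1.05 in the same order, against a median of 0.379. Of the other windows read, that of Etv5 had a GC content of 71.2%, and those of Etv1 and Eomes, at 46.4% each, lay below the median. The GC box (GGGCGG) was found in the windows of Barhl2, Egr2, Id4 and Etv5, that is in 4 of the 7 genes with a window, and in 33% of all windows. The CCAAT box (CCAAT) was found in the windows of Lhx1, Id4, Etv5 and Eomes, and in 34.5% of all windows. The EGR site (GCGNGGGCG) occurred in Id4 alone of the 7, where both matches overlap a GC box, and in 4.63% of all windows. A further 11 motifs had no match in the 7 windows. They were the ETS core CCGGAA (12.3% of all windows), the POU octamer ATGCAAAT (1.62%), the homeodomain motif TAATTA (4.91%), the T-box motif AGGTGTGA (1.14%), the STAT and BCL6 motif TTCNNNGAA (7.14%), the cAMP response element TGACGTCA (1.6%), the CArG box (1.41%), the AP-1 motif TGANTCA (6.85%), the retinoid half-site AGGTCA (13.8%), its direct repeat with a spacer of 5 bases (0.0074%) and the TATA motif TATAAA (13%). Windows were also read for Etv1, Etv5 and Eomes, of which that of Etv1 lies wholly inside the gene as GENCODE draws it and that of Etv5 with 149 of its bases, and Bcl6b, Etv4 and Pou3f1 are named only.

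Levels fell across most of the group. Of the 10 genes, 9 were lower in NRRA by the rule used for all genes (edgeR quasi-likelihood test, adjusted p under 0.05), where 28.4% of the 20232 genes tested were lower and 27.9% were higher, and 0 of the 10 were higher. Nothing is read from this count, since the genes were chosen with this comparison known. In the same 9 genes both NRRA libraries lay below both Veh libraries, as in 38.6% of all genes tested. At least 2-fold falls were called for 7 of the 10, and for 7.02% of all genes tested. The median log2 fold change (NRRA over Veh) was -2.37 over the 10 genes and -1.97 without Barhl2, and it was 0.00029 over all genes tested. The libraries held between 28022265 and 31604769 counts, and values are given as CPM, the counts of a gene scaled to a common library size after TMM adjustment, with the standard deviation (SD) over n = 2.

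**Figure D1:**
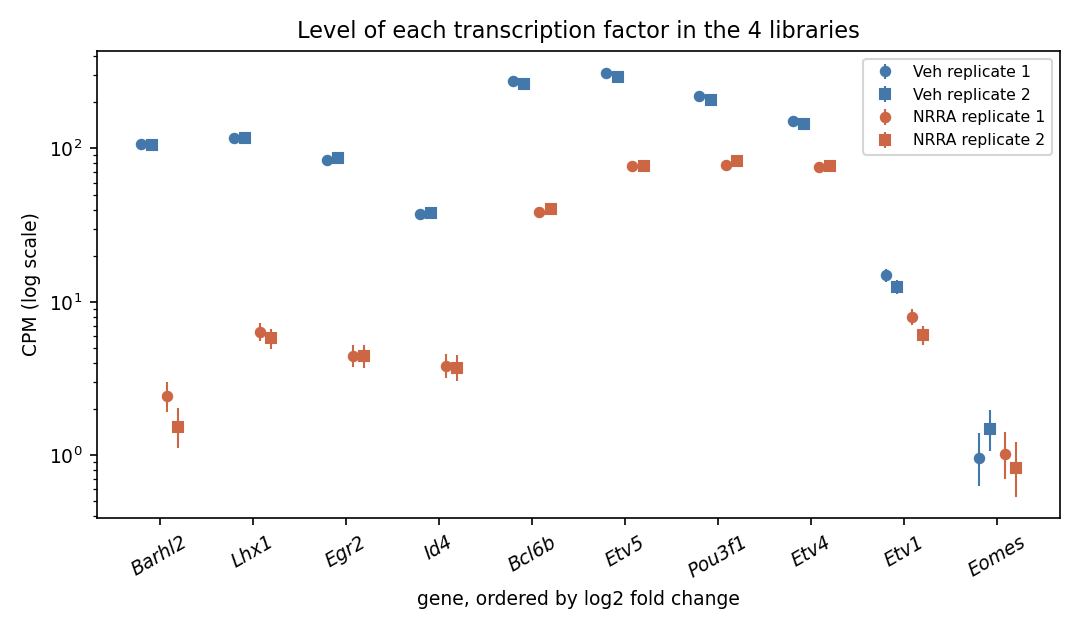
Level of each transcription factor in CPM (log axis) in the 4 libraries, with exact 95% Poisson intervals of the counts as bars. In 9 genes the NRRA libraries lie below the Veh libraries, from Barhl2 (105 and 106 CPM in Veh, 1.53 and 2.43 CPM in NRRA) to Etv1, and in Eomes they overlap.

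The SSC cultures held germ cell and fibroblast RNA in both groups. The 8 germ cell markers, with Ddx4 and Dazl among them, summed to between 1794 and 1863 CPM in Veh and between 1973 and 1983 CPM in NRRA, with 4 markers higher and 3 lower. The 13 fibroblast markers summed to between 3066 and 3096 CPM in Veh and between 2770 and 2912 CPM in NRRA, with 2 higher and 10 lower, and no marker of either list was at 0. The 4 markers of undifferentiated spermatogonia (Zbtb16, Gfra1, Ret and Nanos2) were all lower, with sums of 1053 CPM in both Veh libraries and of 202 and 207 CPM in the NRRA libraries. Of the 6 Sertoli cell markers, Fshr was at 0 and Amh at most at 0.101 CPM in each library, and Cldn11 was too low to be tested (0.0369 and 0.202 CPM in Veh, 0.399 and 0.299 CPM in NRRA). Of the 3 that were tested, Sox9 was lower (27.1 and 29.4 CPM in Veh, 9.33 and 9.43 CPM in NRRA), and Wt1 and Gata4 did not pass the test (log2 fold changes of -0.28 and 0.48, edgeR adjusted p 0.0826 and 0.422). The 4 Leydig cell markers summed to at most 9.43 CPM, with 1 of the 2 tested higher. The 4 macrophage markers summed to at most 35.2 CPM, with 1 lower. The 3 endothelial markers summed to 17.4 CPM in both Veh libraries and to 6.17 and 6.44 CPM in NRRA, with Pecam1 and Kdr lower and Cdh5 without a call (log2 fold change -0.46, edgeR adjusted p 0.109). Fewer cells of a type and less RNA per cell cannot be told apart in these bulk libraries, and the part that feeder or other cells had in the values below was not tested.

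The PEA3 group of ETS factors (Etv1, Etv4 and Etv5), activators that work at the end of ERK signalling, fell by unequal amounts. Etv5, which is required for the upkeep of SSCs in the testis (ENSMUSG00000013089, GRCm38 chromosome 16, 22381309 to 22439719, minus strand), had 309 and 294 CPM in the Veh libraries and 76.5 and 77.0 CPM in the NRRA libraries. The groups did not overlap, and NRRA held 25.5% of the Veh level, a log2 fold change of -1.97 (standard error, SE, 0.034, derived from the test statistic). A stretch of 42.8% of the longest Etv5 transcript is near-identical (at least 95% over at least 100 bases) to Gm4798, for which 10 to 60 counts a library were recorded, against 2319 to 8751 counts for Etv5. Reads of this stretch may have been dropped or assigned wrongly, so the level of Etv5 beside that of other genes is uncertain.

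Etv4 (ENSMUSG00000017724, chromosome 11, 101769742 to 101785371, minus strand) had 151 and 144 CPM in Veh and 75.3 and 76.4 CPM in NRRA. It kept 51.4% of its Veh level, with a log2 fold change of -0.96 (SE 0.038), and its libraries were close together within each group. Etv1 (ENSMUSG00000004151, chromosome 12, 38779380 to 38870484, plus strand) was the scarcest of the 3 per length, with 14.9 and 12.5 CPM in Veh and 7.98 and 6.05 CPM in NRRA. Its log2 fold change of -0.96 (SE 0.13) matched that of Etv4 in size, but its libraries spread more, and the Poisson intervals of the NRRA libraries (7.04 to 9.02 and 5.199 to 6.99 CPM) did not overlap. Of the longest Etv1 transcript, 24.7% is near-identical to stretches of 6 other genes, among them Sntb2 (3408 to 4253 counts) and Pgm2l1 (1690 to 3786 counts), which leaves its level uncertain. Within the PEA3 group, and by the reads as assigned, Etv5 thus went from 73.4 ± 2.49 to 18.7 ± 0.0886 CPM per kb of exon (SD, n = 2). In NRRA it was below Etv4, which went from 47.6 ± 1.66 to 24.4 ± 0.261 CPM per kb.

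Bcl6b, a zinc finger repressor of the BCL6 family that acts in SSC self-renewal under GDNF (ENSMUSG00000000317, chromosome 11, 70224128 to 70229798, minus strand), had 274 and 261 CPM in Veh and 38.3 and 40.0 CPM in NRRA. NRRA held 14.6% of the Veh level, a log2 fold change of -2.77 (SE 0.039). In Veh its level per length, 72.0 ± 2.38 CPM per kb, did not differ from that of Etv5 beyond the spread, whereas in NRRA it was 10.5 ± 0.325 CPM per kb and below it.

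The homeobox and POU factors held both a moderate and the most extreme change. Pou3f1 (OCT6), a POU factor induced by GDNF in culture (ENSMUSG00000090125, chromosome 4, 124656807 to 124660655, plus strand), had 221 and 208 CPM in Veh and 78.4 and 83.0 CPM in NRRA, 37.6% of the Veh level and a log2 fold change of -1.41 (SE 0.038). Gm2164, with 33 to 79 counts a library, lies antisense to 8.57% of its exon, and reads of the pair cannot be told apart without a strand setting. Lhx1, a LIM homeobox factor (ENSMUSG00000018698, chromosome 11, 84518284 to 84525535, minus strand), had 117 CPM in each Veh library and 6.39 and 5.78 CPM in NRRA. It kept 5.19% of its Veh level, a log2 fold change of -4.27 (SE 0.064).

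Barhl2, a BarH-like homeobox factor (ENSMUSG00000034384, chromosome 5, 106452523 to 106458166, minus strand), was counted 2883 and 3124 times in the Veh libraries and 79 and 46 times in the NRRA libraries. In CPM this was 106 and 105 against 2.43 and 1.53. NRRA held 1.87% of the Veh level, and its log2 fold change of -5.72 (SE 0.091) was the 21st lowest of the 20232 genes tested. The next of the 10 genes in that order were Lhx1 (62nd) and Egr2 (63rd), taken for their role but with earlier results of these data known. The Poisson intervals of the NRRA libraries of Barhl2 (1.92 to 3.02 and 1.12 to 2.04 CPM) overlapped, and its log2 fold change was -6.10 without NRRA replicate 1 and -5.44 without NRRA replicate 2. Barhl2 overlaps no other annotated exon and has no near-identical stretch in another gene.

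Egr2, an early growth response zinc finger that growth factor signalling induces (ENSMUSG00000037868, chromosome 10, 67535475 to 67542188, plus strand), had 84.5 and 86.4 CPM in Veh and 4.45 CPM in each NRRA library. NRRA held 5.21% of the Veh level, and the log2 fold change of -4.26 (SE 0.073) differed from that of Lhx1 by less than either SE. Id4, which lacks a DNA-binding region and holds back basic helix-loop-helix factors (ENSMUSG00000021379, chromosome 13, 48261228 to 48266026, plus strand), had 37.4 and 38.1 CPM in Veh and 3.84 and 3.72 CPM in NRRA. NRRA held 10% of the Veh level of Id4, a log2 fold change of -3.32 (SE 0.094). Of its exonic bases 4.44% overlap other genes on the opposite strand, among them Gm49291, which was counted 112 and 102 times in Veh but 0 and 14 times in NRRA.

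Eomes, a T-box factor (ENSMUSG00000032446, chromosome 9, 118478212 to 118486132, plus strand), was hardly present. The Veh libraries held 26 and 44 counts of Eomes and the NRRA libraries 33 and 25, or 0.959 and 1.48 against 1.01 and 0.830 CPM. The groups overlapped, and a difference was not detectable at this depth (log2 fold change -0.41, SE 0.34). The value was between -0.68 and -0.054 when single libraries were left out, so its size rests on them. Antisense to 2.84% of its exons lies Gm33460, with 1 to 16 counts a library.

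**Figure D2:**
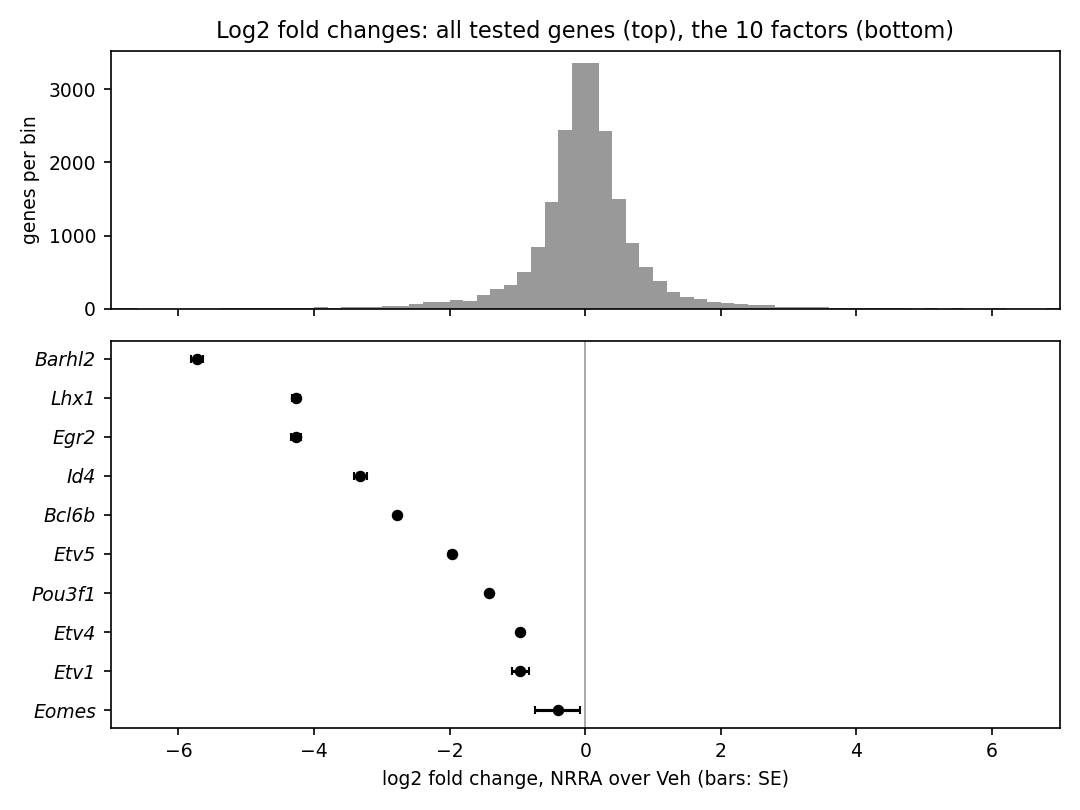
Log2 fold changes of NRRA over Veh, as a histogram of all 20232 genes tested (top, values beyond the axis placed in the end bins) and for the 10 transcription factors with their SE (bottom). The SE is derived from the test statistic and understates the error of Barhl2, Lhx1, Egr2 and Id4. The factors spread from -5.72 for Barhl2 to -0.41 for Eomes, while the 5th and 95th percentiles of all genes are -1.31 and 1.19.

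Levels can be compared between genes per kb of exon, though those of Etv5 and Etv1 are uncertain, since parts of their transcripts are near-identical to other genes. In Veh the order was Etv5, Bcl6b, Pou3f1 (55.8 ± 2.34 CPM per kb), Etv4, Barhl2 (45.7 ± 0.400), Lhx1 (28.8 ± 0.0139), Egr2 (25.1 ± 0.396), Id4 (9.80 ± 0.134), Etv1 (1.03 ± 0.127) and Eomes (0.293 ± 0.0885). Of the neighbours in that order, Etv5 and Bcl6b, and Etv4 and Barhl2, did not differ beyond their summed SD. The 5 most abundant factors stood at or above the 94.6th percentile of the genes tested, and Etv1 and Eomes at the 27.7th and 11.2th. In NRRA the order was Etv4, Pou3f1 (20.96 ± 0.848 CPM per kb), Etv5, Bcl6b, Lhx1 (1.49 ± 0.105), Egr2 (1.31 ± 0.00023), Id4 (0.982 ± 0.0216), Barhl2 (0.854 ± 0.274), Etv1 (0.528 ± 0.103) and Eomes (0.222 ± 0.0311). Barhl2 did not differ from Id4 or from Etv1 beyond the summed SD. Etv4, Pou3f1, Etv5 and Bcl6b stayed above the 71st percentile, whereas Barhl2, which had been level with Etv4 in Veh by this measure, stood at the 24.6th. With the longest transcript in place of all exons, Bcl6b (79.5 CPM per kb) came before Etv5 (75.8) and Etv4 (61.6) before Pou3f1 (55.8) in Veh. Etv4 was then no longer level with Barhl2 (45.7). Etv1 stood at 2.08 CPM per kb in Veh instead of 1.03, and in NRRA it (1.07) came before Id4 and Barhl2.

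**Figure D3:**
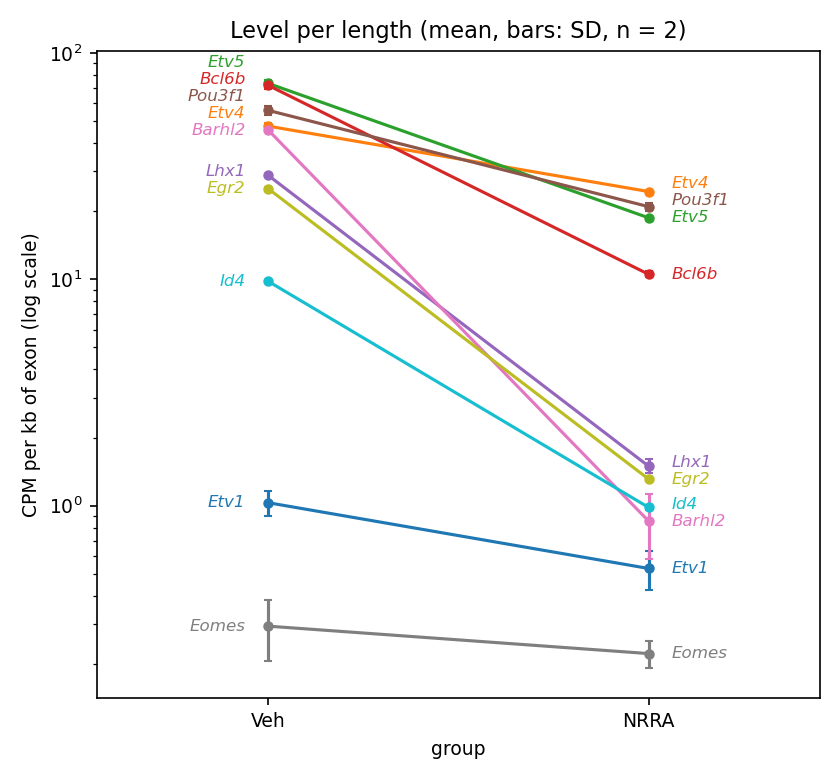
Level per kb of exon (log axis) of the 10 transcription factors in Veh and NRRA, as means with the SD over n = 2. Etv4, Pou3f1, Etv5 and Bcl6b end between 10.5 and 24.4 CPM per kb, while Barhl2, Lhx1, Egr2 and Id4 end between 0.854 and 1.49 CPM per kb.

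The genes with the most similar profiles were sought among the 14685 genes whose log2 CPM averaged 1 or more, by the Euclidean distance between log2 CPM values centred on each gene's mean over the 4 libraries. With 2 groups this distance mostly compares the size of the fold change. Lhx1 and Egr2 were among each other's nearest genes (distance 0.104), together with Tspan8 (0.0802 from Lhx1, 0.155 from Egr2) and Sphk1 (0.208 and 0.185). The nearest genes of Bcl6b were Pygl (0.0691), Ret (0.0818) and Mycn (0.135), and those of Id4 were Dusp6 (0.0639), Mmp3 (0.128) and Zfp750 (0.139). Barhl2 had no such close neighbour, with Pcdh12 at 0.289, Nanos3 at 0.760 and Tcl1 at 1.19.

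The other genes of GDNF and FGF signalling, which act upstream of these factors or hold the pathway back, were read in the same libraries. Of 53 genes listed, 52 were tested, of which 30 were lower and 15 higher, with a median log2 fold change of -0.23. Among all genes tested, 28.4% were lower and 27.9% higher. The feedback inhibitors, which ERK signalling itself induces, were lower in 9 of 10, with a median of -1.06. Dusp6, the phosphatase of ERK, fell from 288 ± 5.06 to 29.9 ± 1.86 CPM, or by -3.27 ± 0.041 on the log2 scale (SE, with an edgeR adjusted p of 3.85e-28). Spry4, an inhibitor upstream of RAF, fell from 171 ± 0.728 to 22.8 ± 1.38 CPM, or by -2.91 ± 0.046 on that scale (edgeR adjusted p 8.28e-26). The inhibitor without a call, Spred2, was named after its values were seen and had a log2 fold change of 0.02 (edgeR adjusted p 0.722).

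Receptors moved both ways, with 5 of 10 higher and 5 lower, against 27.9% higher and 28.4% lower among all genes. Ret fell from 452 ± 5.93 to 64.1 ± 0.682 CPM (log2 fold change -2.82, edgeR adjusted p 5.60e-29) and Gfra1 from 153 ± 4.11 to 58.7 ± 2.74 CPM (-1.38, edgeR adjusted p 3.57e-20). Fgfr1, the FGF receptor with the highest CPM here, fell less, from 216 ± 4.72 to 164 ± 4.94 CPM (log2 fold change -0.40, edgeR adjusted p 3.69e-11). Gfra2 and Gfra4 were also lower, with log2 fold changes of -0.87 and -0.28, and the call of Gfra4 was lost with library size only (edgeR adjusted p 0.162). Gfra3, the co-receptor for artemin, rose from 3.69 ± 0.0429 to 23.5 ± 2.01 CPM (log2 fold change 2.67, edgeR adjusted p 8.92e-17), and Fgfr3, Fgfr4, Fgfr2 and Ncam1 rose with log2 fold changes of 1.69, 1.42, 0.90 and 0.40.

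Ligands and the transducers between receptor and nucleus had changes of both signs. Of 6 ligands tested, 2 were higher and 3 lower. Fgf9 fell from 8.65 ± 0.553 to 0.851 ± 0.205 CPM (log2 fold change -3.35, edgeR adjusted p 9.28e-14), and Nrtn, which encodes neurturin, rose from 3.95 ± 0.830 to 10.2 ± 0.117 CPM (log2 fold change 1.38, edgeR adjusted p 5.72e-09). The ligand without a call, named after its values were seen, was Fgf8, at 0.178 ± 0.0614 CPM in Veh and 0.450 ± 0.115 CPM in NRRA (log2 fold change 1.33, edgeR adjusted p 0.0643). The transcripts of both factors that name the pathways, also chosen after their values were seen, were Gdnf, which rose from 3.04 ± 0.547 to 4.41 ± 0.409 CPM (log2 fold change 0.53, edgeR adjusted p 0.0147), and Fgf2, which fell from 13.96 ± 1.498 to 9.06 ± 0.692 CPM (-0.62, edgeR adjusted p 2.13e-05). Of 26 transducers, 13 were lower and 8 higher, against 28.4% lower and 27.9% higher among all genes. Their median log2 fold change was -0.079, which was 0.0105 when scaled by library size only.

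Relatives of the 10 factors were read family by family. Of 73 paralogs listed, 52 were tested, with 20 lower and 15 higher, against 28.4% lower and 27.9% higher among all genes, and a median log2 fold change of -0.18. The EGR family stood with Egr2, and all 3 of its other genes were lower. Egr3 fell from 32.8 ± 1.08 to 3.21 ± 0.494 CPM (log2 fold change -3.36, edgeR adjusted p 1.70e-19), Egr4 from 185 ± 10.8 to 29.5 ± 1.07 CPM (-2.65, edgeR adjusted p 8.62e-25) and Egr1 from 184 ± 6.32 to 48.5 ± 2.65 CPM (-1.93, edgeR adjusted p 5.78e-23). The ETS family outside the PEA3 group moved both ways, with 7 of 17 higher and 7 lower. Its repressor Etv3 rose from 47.3 ± 2.95 to 108 ± 2.70 CPM (log2 fold change 1.19, edgeR adjusted p 1.65e-17) and Erg from 33.8 ± 1.02 to 57.7 ± 1.24 CPM (0.77, edgeR adjusted p 3.62e-12). Erf, another ETS repressor, named after its values were seen, fell from 116 ± 4.43 to 63.6 ± 0.637 CPM (-0.87, edgeR adjusted p 1.06e-15).

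The POU, LIM homeobox and T-box families also had changes of both signs. Among POU genes 3 of 7 were higher and 3 lower, with Pou5f1, which encodes OCT4, at a log2 fold change of -2.43 and Pou4f1 at 1.57 (edgeR adjusted p 9.38e-22 and 9.13e-15). Among LIM homeobox genes 3 of 9 were higher and 2 lower, and among T-box genes 2 of 10 were higher and 2 lower, with Tbx6 at 0.97 (edgeR adjusted p 7.43e-05). Of the 3 other ID genes, 2 were lower, with a median of -0.53. Bcl6, the relative of Bcl6b and also named after its values were seen, was lower, with a log2 fold change of -1.06 (edgeR adjusted p 1.23e-11). Barhl1 and Barx1, both likewise named after their values were seen, had log2 fold changes of -0.32 and -0.57 that did not pass the test (edgeR adjusted p 0.15 and 0.116). The families were not tested against each other.

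**Figure D4:**
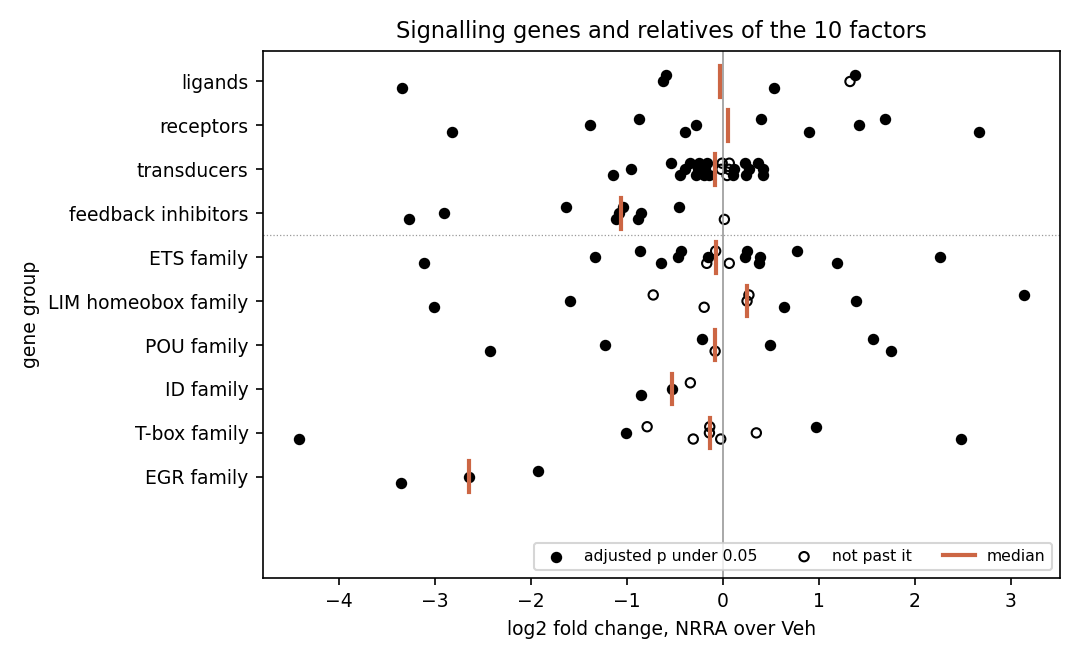
Log2 fold changes of NRRA over Veh for tested genes of GDNF and FGF signalling (above the dotted line) and of 6 families related to the 10 transcription factors (below it; the BCL6 and BAR families are not drawn), 1 point per gene, filled where the edgeR adjusted p is under 0.05, with the median of each group as a bar. All EGR and ID family genes lie to the left of 0, with medians of -2.65 and -0.53, as do the feedback inhibitors (median -1.06) except Spred2, and the other groups drawn have points on both sides.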

How the data were processed

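RNA-seq was made from 4 libraries (2 Veh, 2 NRRA). The kit is uncertain, since the labels and the study's methods name different ones. The file as deposited by the authors holds raw counts for each gene and library, without normalization. The submitters' processing notes name STAR 2.6.1c, featureCounts 1.6.4 and mm10. The annotation release, the strand setting and the treatment of reads with several matches are not given in the sources used here, so reads of overlapping or near-identical genes may be assigned wrongly. Groups and replicate numbers came from the titles, and columns were matched to samples by their descriptions.

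The counts were filtered with filterByExpr, scaled with TMM and tested with edgeR 4.0.16 in R 4.3.3 (quasi-likelihood F test, robust estimation) across 20232 genes, with Benjamini-Hochberg adjustment and a threshold of 0.05. CPM used the TMM-scaled library sizes, and log2 CPM a prior count of 2. The SE of a log2 fold change is its absolute value divided by the square root of the F statistic. It understates the error where a large fall left few counts in NRRA, as for Barhl2, Lhx1, Egr2 and Id4. The smallest and largest TMM factors were 0.969 and 1.03. Intervals are exact Poisson intervals at 95% and cover counting error only, since PCR copies were not told apart. Positions and exonic lengths came from GENCODE M21 (GRCm38), which held 99.5% of the gene identifiers. Alternatives were DESeq2 1.42.0, other scalings and filters, the replicate block and leaving out single libraries. The fit was tested on simulated data.

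The genes and lists were chosen with earlier results of these data known. Named from each list were the 4 highest and 4 lowest called log2 fold changes among genes averaging 1 or more in log2 CPM, all receptors and the 3 nearest profiles of some factors. Further genes are marked as chosen after their values were seen. A result that the rule would name is not reported here.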

Additional observations from a re-analysis of the deposited data

How the results depend on the processing

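The 10 transcription factors kept the sign of their log2 fold change under each of the 12 alternatives run for each of them. Their median, -2.37, was -2.28 with library size only and -2.49 with scaling to the summed germ cell markers. These scalings moved the median of all genes by 0.09 and -0.113, and genes higher in NRRA made up 60.25% and 36.04% of the calls, against 49.6% with TMM. With germ cell marker scaling the number of partner and regulator genes that were higher was 2 instead of 4. With that scaling Etv1 and Etv4 also passed a 2-fold fall, at -1.07 and -1.08 on the log2 scale. The other counts of calls that were recomputed, over all genes and over the whole signalling, paralog and partner lists, stayed within 1.5 times the values given. Counts for single families, subgroups and marker lists were recomputed for these 2 scalings only. Of the genes named, germ cell marker scaling ended the calls of Cic, Ncor1 and Dazl and added Wt1, Cdh5 and Barhl1 as lower. Library size only ended those of Gfra4 and Cop1 and added Spred2, Fgf8 and Ddx4 as higher. With library size only 7 instead of 10 fibroblast markers were lower, and 4 instead of 2 T-box genes higher. Of the germ cell markers, 5 instead of 4 were higher and 1 instead of 3 lower with library size only. With germ cell marker scaling 1 instead of 4 of them was higher. That scaling also ended the call of the Leydig cell marker, and 3 macrophage markers instead of 1 were lower. The medians of the ligands, transducers, ETS and POU genes turned positive with library size only, and those of the receptors and germ cell markers turned negative with germ cell marker scaling. With the replicate number as a block, 5772 genes were higher and 5836 lower, against 5654 and 5752, and 29 signalling genes were lower instead of 30, and the median of the 10 factors under the replicate block was -2.37. Deviations of same-numbered libraries correlated at -0.0106 over genes. With 2 libraries a group this cannot show whether the libraries were paired. Leaving out single libraries moved the median of the 10 factors to between -2.41 and -2.34, and the log2 fold change of Etv1 to between -1.17 and -0.78. With 2 libraries a group the SE rests on few samples, and for Eomes, with 25 to 44 counts a library, the depth limits what can be detected.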

Other observations

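Genes whose products bind or control these factors formed a further list, of which 21 were tested. In it 12 were lower and 4 higher, against 28.4% lower and 27.9% higher among all genes. Both NAB co-repressors tested, which bind EGR factors, were lower. Nab2 fell from 217 ± 1.65 to 51.0 ± 1.99 CPM (SD, n = 2), a log2 fold change of -2.08 (edgeR adjusted p 1.18e-24). Of co-repressors that work with BCL6 family proteins, Bcor had a log2 fold change of -1.79 (edgeR adjusted p 8.23e-21) and Ncor1 one of 0.14 (edgeR adjusted p 0.000245). Trib1, an adaptor of the COP1 ubiquitin ligase that degrades PEA3 factors, had a log2 fold change of -1.49 (edgeR adjusted p 2.05e-16). Cop1 itself, Det1 and Trib2, named after their values were seen, had log2 fold changes of -0.17, 0.03 and -0.96 (edgeR adjusted p 0.00654, 0.773 and 8.08e-11). The capicua repressor Cic and its partner Atxn1l had log2 fold changes of 0.18 and 0.30 (edgeR adjusted p 2.13e-06 and 1.30e-06). With scaling to germ cell markers the calls of Cic and Ncor1 were lost (log2 fold changes of 0.061 and 0.025, edgeR adjusted p 0.206 and 0.651) and that of Atxn1l was not. Of the 3 E proteins that ID factors bind, 2 were lower, 3 with germ cell marker scaling and 1 with library size only, and their median was -0.19.

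Relatives of the 10 factors outside the naming rule were also far from 0 in both directions, and are named after their values were seen. T, the Brachyury T-box gene, was counted 133 and 123 times in the Veh libraries and 8 and 5 times in the NRRA libraries (edgeR adjusted p 4.40e-12). Lhx5, a close relative of Lhx1, was counted 110 and 133 times against 22 and 11 times (edgeR adjusted p 4.33e-10). Fev, an ETS factor, was counted 87 and 55 times against 10 and 8 times (edgeR adjusted p 8.44e-08). Rises were those of Lhx8, from 8 and 17 counts to 133 and 111 (edgeR adjusted p 6.82e-10), Tbx1, from 18 and 16 to 111 and 100 (edgeR adjusted p 1.41e-08), and Elf3, from 10 and 11 to 59 and 53 (edgeR adjusted p 5.81e-06).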
